A study of Mus musculus with 6 samples.

Results

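The genes of the lipopolysaccharide (LPS) receptor, Tlr4 and Cd14, were examined together with Tlr2, a related receptor for other bacterial products. They were taken by their Ensembl transcript identifiers, ENSMUST00000048096_at for Tlr4, ENSMUST00000061829_at for Cd14 and ENSMUST00000029623_at for Tlr2. All 3 were present among the 74007 transcript rows of the table, with 1 row each. The pairing of these identifiers with the genes was taken as given, because the gene table at hand pairs 0 of the rows with a symbol. No row shared all of its values with any of the 3. Further transcripts of the same genes may be among the other rows, which could not be named.

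The samples were macrophages grown from the femoral bone marrow of 3 female C57BL/6J mice, 8 to 12 weeks old and on normal chow. LPS macrophages received 10 ng/mL LPS on day 7 of culture and were collected 4 h later (3 arrays, 1 per mouse). Unstim macrophages, 3 cultures of the same mice, received none. Every culture, LPS or Unstim, was grown in 50 ng/mL of recombinant human M-CSF, the growth factor of macrophages, and replated on day 6, so the values describe cells grown in that factor and not tissue macrophages. Total RNA was measured on Affymetrix mouse exon arrays, and each value is the authors' log2 expression of a transcript-level probe set. The macrophage label could not be checked against marker genes, since their rows carry no names.

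LPS is a main component of the outer surface of Gram-negative bacteria. LPS-binding protein is known to hand it to CD14, a protein held in the membrane by a lipid anchor, which passes it to the complex of TLR4 with MD-2. TLR4 signals at the cell surface through the adaptors TIRAP and MyD88 and, after uptake, through TRAM and TRIF, and both routes activate the transcription factor NF-kB. TLR2, paired with TLR1 or TLR6, detects bacterial lipopeptides, which CD14 can also present, and it signals through MyD88.

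Of the 3 genes, a promoter is shown for 1, Tlr2, and those of Tlr4 and Cd14 are not shown or compared here. The NF-kB motif is marked because NF-kB acts downstream of TLR4. Whether its matches bear on the rise of Tlr2 was not tested. The sequence is from RefSeq. The stretch runs 5′ to 3′ on the minus strand of mouse build GRCm38.p6, chr3:83841607-83841858, and covers the 250 bases before the start used by that table and the first 2 bases after it. Capitals mark matches to the NF-kB consensus.
Tlr2: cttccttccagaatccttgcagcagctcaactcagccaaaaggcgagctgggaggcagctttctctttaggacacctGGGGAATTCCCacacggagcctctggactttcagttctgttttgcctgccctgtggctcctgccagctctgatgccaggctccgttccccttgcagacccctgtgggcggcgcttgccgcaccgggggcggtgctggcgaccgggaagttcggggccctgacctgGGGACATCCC

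Motif letters were searched on both strands of the full window of 300 bases. The NF-kB consensus matched in both capitalised runs. The first, made up of overlapping matches on both strands, begins 173 bases before the start, and the second begins 8 bases before it and runs across it. Of 32851 promoter windows of the same length, 4.51% hold at least 1 such match. The Sp1 motif GGGCGG was found 69 and 48 bases before the start, and it occurs in 35.7% of windows. Neither the AP-1 motif TGANTCA, held by 7.81% of windows, nor the PU.1 motif GAGGAA, held by 28.3%, has its letters in this window. These matches describe the sequence and are not binding sites that were measured.

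The comparison of LPS with Unstim macrophages asks how the messages for the LPS sensor and for its partners respond to stimulation of TLR4. The 3 genes did not move together. Tlr4 fell to 51.6% of its Unstim signal, Cd14 rose 1.56-fold and Tlr2 rose 3.19-fold. Each passed the threshold of a limma adjusted p under 0.05, but calls were common in these arrays: 32.0% of all rows passed, 8.75% of rows as higher and 23.2% as lower. Higher rows made up 27.3% of the calls as deposited, 43.4% after quantile normalization, 48.7% after cyclic loess, 48.1% with centring on the rows above the median level and 66.6% with centring on each array's median. The median over all rows was 7.77 in LPS arrays and 7.92 in Unstim arrays, a shift of -0.15. Relative to that shift the 3 genes moved by the values of the median-centred setting, -0.80 for Tlr4, 0.79 for Cd14 and 1.82 for Tlr2. In total RNA of a culture, fewer cells that carry a message and less message per cell cannot be told apart.

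Tlr4, the signalling receptor for LPS, had log2 values of 10.10, 9.94 and 9.62 on LPS arrays 1, 2 and 3, against 10.87, 10.72 and 10.92 on Unstim arrays 1, 2 and 3. The highest LPS array lay 0.62 below the lowest Unstim array, so the groups did not overlap, as was the case in the lower direction for 29.6% of all rows. Tlr4 averaged 9.88 ± 0.24 in LPS macrophages and 10.84 ± 0.11 in Unstim macrophages (SD, n = 3 each). The difference, LPS minus Unstim, was -0.95 ± 0.13 on the log2 scale (SE; limma adjusted p = 0.00169). Its 95% interval ran from -1.26 to -0.65, which as a fall is 1.57-fold to 2.39-fold. The estimate, a fall of 1.94-fold, stayed short of the 2-fold fall that 2.95% of all rows reached with a call, but 2-fold lay inside its interval. LPS array 3 was the lowest of the LPS arrays, and without it the difference was -0.82 ± 0.088 (SE).

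Cd14, which encodes the co-receptor that delivers LPS to TLR4, had log2 values of 12.09, 12.34 and 12.00 on LPS arrays 1, 2 and 3, against 11.19, 11.77 and 11.53 on Unstim arrays 1, 2 and 3. The lowest LPS array lay 0.23 above the highest Unstim array, and 14.9% of all rows were separated in that direction. Cd14 averaged 12.14 ± 0.17 in LPS macrophages and 11.50 ± 0.29 in Unstim macrophages (SD, n = 3 each), a difference of 0.64 ± 0.16 (SE; limma adjusted p = 0.0212). The 95% interval of the difference ran from 0.26 to 1.02, or from 1.20-fold to 2.03-fold. This call was the least firm of the 3: the limma adjusted p was 0.0719 without LPS array 2 and 0.061 without Unstim array 3, with log2 differences of 0.55 and 0.66.

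The spread of Cd14 lay mostly in the Unstim group. Its Unstim SD of 0.29 was larger than that of 93.3% of the 7401 rows in the brightest of 10 bins of equal size by mean level, where the median SD was 0.13. Its LPS SD of 0.17 was near the bin's median of 0.16. Array 2 carried the highest Cd14 value in both groups. Unstim array 1 carried the lowest, and without it the difference was 0.49.

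Tlr2, the lipopeptide receptor, had log2 values of 11.88, 11.55 and 11.49 on LPS arrays 1, 2 and 3, against 10.03, 9.74 and 10.12 on Unstim arrays 1, 2 and 3. A gap of 1.37 separated the lowest LPS array from the highest Unstim array, and 14.9% of all rows were separated with LPS above. Tlr2 averaged 11.64 ± 0.21 in LPS macrophages and 9.97 ± 0.20 in Unstim macrophages (SD, n = 3 each). The difference was 1.67 ± 0.14 (SE; limma adjusted p = 0.00023), with a 95% interval from 1.34 to 2.00, or 2.54-fold to 4.00-fold. A rise of at least 2-fold that passed the test was found for 3.00% of all rows and for 10.6% of the brightest bin.

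**Figure D1:**
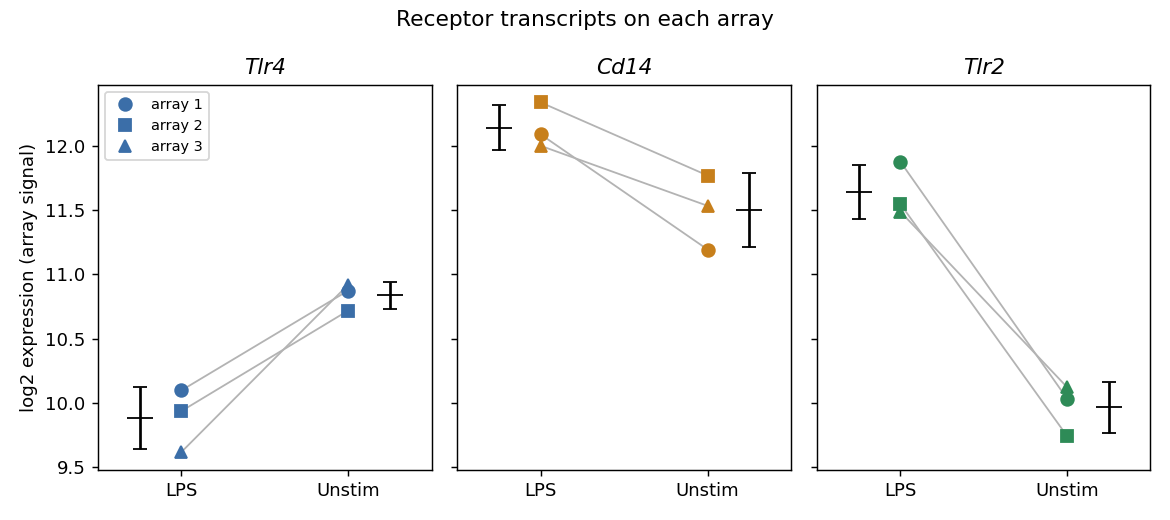
Log2 expression of Tlr4, Cd14 and Tlr2 on each array, with LPS arrays to the left of Unstim arrays in each panel; grey lines join same-numbered arrays, and black bars give the mean and SD of 3 arrays. The groups do not overlap in any panel, with the narrowest gap, 0.23, for Cd14. Such separation was common: 14.9% of all rows had every LPS array above every Unstim array, and 29.6% had every LPS array below. Heights of different panels do not compare abundance.

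Each mouse gave 1 culture to each group, and the same-numbered arrays were taken to be of the same mouse. Within pairs 1, 2 and 3 the log2 difference of Tlr4, LPS minus Unstim, was -0.78, -0.78 and -1.30. That of Cd14 was 0.89, 0.57 and 0.47, and that of Tlr2 was 1.84, 1.81 and 1.37. Every gene kept its direction in all 3 pairs, as it had to, since its LPS and Unstim arrays did not overlap. Pair 3 gave the lowest difference for each of them, which is the deepest fall of Tlr4 and the smallest rise of Cd14 and of Tlr2. This rests on the numbering, which is least sure for pair 3: LPS array 3 correlated at 0.123 with Unstim array 3 and at 0.207 with Unstim array 2. All 3 genes lie in the brightest bin, where the median difference over rows was -0.063, -0.056 and -0.071 in pairs 1, 2 and 3. Whether LPS array 3 or Unstim array 3 stood apart for such rows was not tested.

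**Figure D2:**
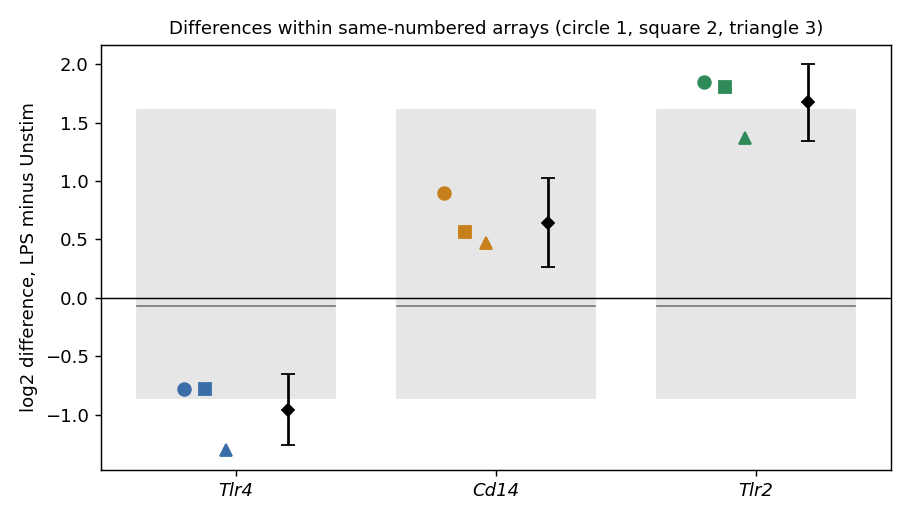
Log2 differences, LPS minus Unstim, within the same-numbered pairs (coloured symbols) and the limma estimate with its 95% interval (black diamond). Grey bands span the 5th to 95th percentile of differences in the brightest bin, from -0.85 to 1.60, with a grey line at its median of -0.072. The estimates of Tlr4 and Tlr2 lie past the band, but their 95% intervals reach into it. Cd14 lies inside it.

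The responses of the 3 genes were also set against each other within a pair, where a shift shared by all rows of an array cancels. The response of Tlr2 exceeded that of Tlr4 by 2.62, 2.59 and 2.67 log2 units in pairs 1, 2 and 3, a mean of 2.63 ± 0.040 (SD, n = 3 pairs). With arrays paired by number, this distance varied less than the responses of Tlr4 and Tlr2 themselves, whose SDs over the pairs were 0.30 and 0.27. These SDs depend on the pairing, and LPS array 3 correlated more closely with Unstim array 2 (0.207) than with Unstim array 3 (0.123). No conclusion is drawn from the small SD. Cd14 exceeded Tlr4 by 1.67, 1.35 and 1.77, a mean of 1.60 ± 0.22 (SD, n = 3 pairs). Tlr2 exceeded Cd14 by 0.95, 1.24 and 0.90, a mean of 1.03 ± 0.18 (SD, n = 3 pairs). The order Tlr2, Cd14, Tlr4 held in all 3 pairs. This order had to hold under any pairing, so the 3 pairs add no support for it. Cd14 and Tlr4 moved in opposite directions with no overlap of groups. The smallest Tlr2 difference between any LPS and any Unstim array, 1.37, was larger than the largest such difference of Cd14. The distances between neighbours were several times their SD, but these SDs rest on the same pairing, and no conclusion is drawn from them. No p is given for these distances: an exact paired permutation test of 3 pairs cannot go below p = 0.25.

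Against the whole table, Tlr4 stood near the lower end of the responses and the other two near the upper end. A lower difference than that of Tlr4 was found in 3.36% of rows. A higher one than that of Cd14 was found in 4.84%, and a higher one than that of Tlr2 in 1.32%. In the brightest bin 16.2% of rows had a higher difference than Cd14 and 4.46% a higher one than Tlr2, while 3.58% had a lower one than Tlr4. In that bin 46.3% of rows passed the test, 22.9% as higher and 23.4% as lower.

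**Figure D3:**
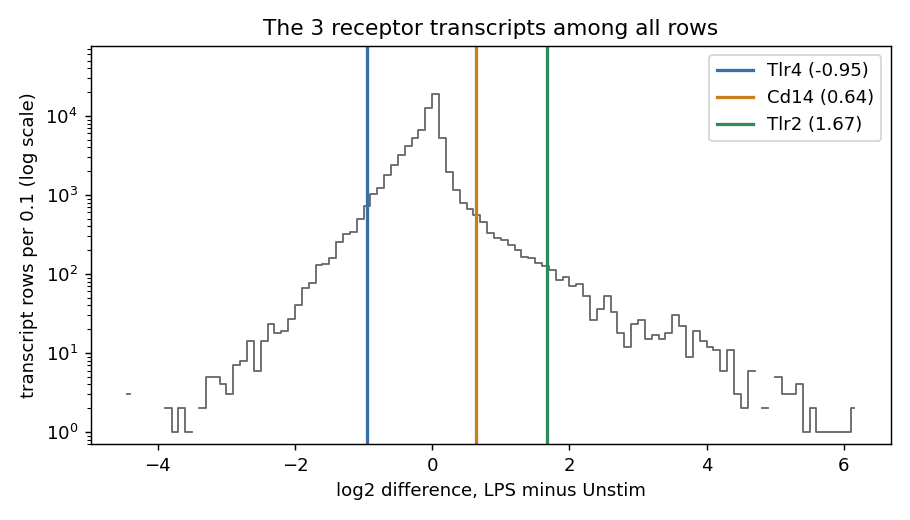
Number of transcript rows (log axis) by log2 difference, LPS minus Unstim, in steps of 0.1, with the 3 receptor genes as coloured lines. Tlr4 at -0.95 lies on the falling side, Cd14 at 0.64 and Tlr2 at 1.67 on the rising side, and the rows with the largest rises lie beyond Tlr2.

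Rows whose pattern was most like each gene were sought by the root mean square distance between the 6 values after each row's own mean was subtracted, among rows within 1 log2 unit of the gene's mean level. Nearest to Tlr4 was ENSMUST00000129043_at, at a distance of 0.038 among 12514 rows, with a mean of 9.11 in LPS and 10.01 in Unstim macrophages. ENSMUST00000150007_at was nearest to Tlr2, at 0.051 among 8773 rows, with 11.41 in LPS and 9.70 in Unstim macrophages. Cd14 had no match as close. Its nearest row, ENSMUST00000069994_at, was at 0.087 among 3288 rows, with 11.28 in LPS and 10.55 in Unstim macrophages. Within a distance of 0.1 there were 109 rows for Tlr4, 24 for Tlr2 and 4 for Cd14. The rows compared differ in number, and the names of these rows are not given here.

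**Figure D4:**
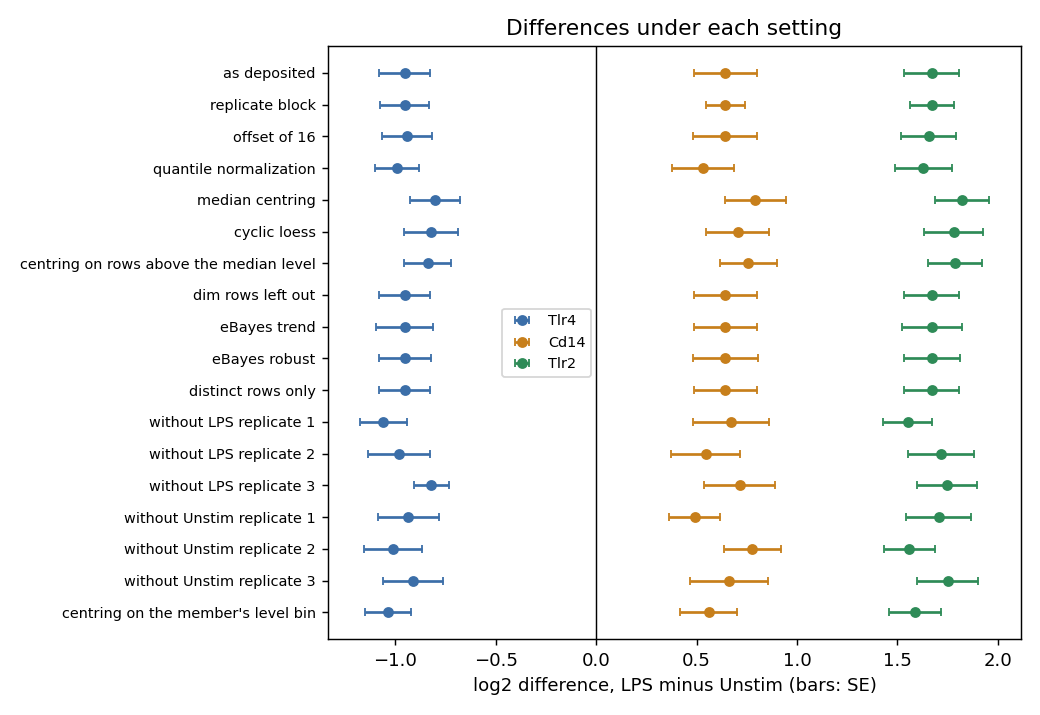
Log2 difference, LPS minus Unstim, of each gene as deposited and under 17 other settings, with bars of 1 SE. Tlr4 stays between -1.06 and -0.80, Cd14 between 0.49 and 0.79 and Tlr2 between 1.55 and 1.82.

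The order of the genes and the direction of each held under every setting in the plot of settings. With quantile normalization, which gave Cd14 its smallest difference among the settings that kept all arrays, the values were -0.99 for Tlr4, 0.53 for Cd14 and 1.63 for Tlr2.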

How the data were processed

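Each deposited value is a log2 expression level that the authors made for a transcript-level probe set on an array, per the labels. PLIER and Affymetrix Power Tools appear in the submitters' processing notes, without versions. How probes were grouped into sets, the genome build, any offset and any scaling of the arrays are not stated in the sources used here. Array medians lay between 7.75 and 7.92. No detection level was used here, and the number of arrays limits the precision.

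Samples were grouped by title. Groups were compared with limma 3.58.1 under R 4.3.3 (lmFit and eBayes, two-sided) over all 74007 rows and 6 arrays, with Benjamini-Hochberg adjustment over all rows. It was tested on simulated data. Across rows, the deviations from the group mean correlated between same-numbered arrays at 0.501, 0.295 and 0.123, and the series text gives each mouse 1 culture per group, so the numbers were taken as pairs; LPS array 3 correlated more closely with Unstim array 2, at 0.207. The 3 genes, the lists and the tests were chosen with earlier results of these data known. The 3 rows are always named, as is the single nearest row of each; the lists of other pathway genes and cell type markers were not tested, since rows could not be named. Promoter sequence and motif shares come from RefSeq (GRCm38.p6). Figures used matplotlib 3.10.9.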

Additional observations from a re-analysis of the deposited data

How the results depend on the processing

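For Tlr4 and Tlr2 all 17 alternative settings kept the direction and a limma adjusted p under 0.05, at most 0.0099 for Tlr4 and 0.00185 for Tlr2. Cd14 kept its direction in all 17 and its call in 15: leaving out 1 array gave differences from 0.49 to 0.78, and the call was lost without LPS array 2 (0.55, limma adjusted p = 0.0719) and without Unstim array 3 (0.66, limma adjusted p = 0.061). Each of these fits has 1 array fewer; the cause was not tested. Over its 17 alternatives the limma adjusted p of Cd14 lay between 0.0055 and 0.0719. The replicate block left the differences at -0.95, 0.64 and 1.67 for Tlr4, Cd14 and Tlr2, with limma adjusted p of 0.00459, 0.00717 and 0.000799, so the calls of the 3 genes did not change. Over the whole table it called 26284 rows. Called rows numbered 23667 as deposited and 35595 with each array centred on its median, which shifts every row by the same amount; the other settings with all arrays gave 21552 to 26284, and leaving out 1 array gave 18380 to 22009. Centring each array on its own median level over the rows of the brightest bin was chosen after seeing the data. It gave -1.04, 0.56 and 1.59 for Tlr4, Cd14 and Tlr2, each lower than as deposited. That median level is a different measure from the bin's median row difference of -0.072, whose removal would raise the values.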
